A study of Homo sapiens with 22 samples.

Results

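The genes described here encode 10 subunits of the human SWI/SNF chromatin remodellers. They were chosen by name as ARID1A, ARID1B, ARID2, SMARCA2, SMARCA4, SMARCB1, SMARCC1, SMARCC2, SMARCD1 and PBRM1, and all 10 were found among the 60675 genes of the table. ARID1A was the starting point of the list because it has been proposed as a substrate of the lysine deacetylase KDAC8 (HDAC8). The rule itself uses gene names and no measured value. RNA was sequenced from HT1080, a human fibrosarcoma cell line, in 22 libraries of 6 groups. WT cells were untreated (4 libraries). In the mutant lines, 4 libraries each, Cas9 editing replaced a catalytic histidine of the endogenous enzyme by alanine, in the first catalytic domain of KDAC6 (HDAC6) for KDAC6H216A, in the second for KDAC6H611A and in KDAC8 for KDAC8H143A. WT cells treated for 2 days with 1 µM Tubastatin A, an inhibitor of KDAC6, or with 5 µM PCI-34051, an inhibitor of KDAC8, gave 3 libraries each. Edited cells were grown from single colonies, KDAC6H216A is a pool of 3 such lines, and KDAC8H143A also carries an unintended base in an intron of the edited gene, so a line and its mutation cannot be told apart. The labels name no vehicle for the inhibitors.

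SWI/SNF complexes use the energy of ATP to move or eject nucleosomes and so open DNA to transcription factors. Each complex holds 1 ATPase, SMARCA4 (BRG1) or its paralog SMARCA2 (BRM), and a core built on the scaffold proteins SMARCC1 and SMARCC2 with SMARCD1. SMARCB1 joins the core of the canonical complex and of PBAF. ARID1A and ARID1B are alternative subunits of the canonical complex (cBAF), while ARID2 and PBRM1 belong to PBAF, and a further form, ncBAF, is marked by BRD9 with BICRA or BICRAL. Several of these genes are recurrently mutated in cancer, and loss of 1 member of a paralog pair can leave cells dependent on the other.

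On GRCh38 the genes lie on 7 chromosomes. ARID1A occupies chr1:26693236-26782104, ARID1B chr6:156776020-157210779, SMARCA2 chr9:1980290-2193624, SMARCA4 chr19:10960932-11079426 and SMARCB1 chr22:23786931-23838009. On chromosome 12 lie ARID2 at chr12:45729706-45908040, SMARCD1 at chr12:50085200-50100707 and SMARCC2 at chr12:56162359-56189567. SMARCC1 at chr3:47585269-47782106 and PBRM1 at chr3:52545352-52685917 are near each other in chromosome arm 3p. The stretches upstream of SMARCA4 and SMARCD1 are shown because these were the members that fell most with both inhibitors. They come from RefSeq on GRCh38.p14, plus strand, and end at the base before the annotated gene, with the GC box GGGCGG (either strand) in capitals.
SMARCA4, chr19:10960780-10960931: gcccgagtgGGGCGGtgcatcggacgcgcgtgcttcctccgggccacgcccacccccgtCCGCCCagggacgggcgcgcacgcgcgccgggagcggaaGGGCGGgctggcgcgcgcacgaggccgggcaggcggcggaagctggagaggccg
SMARCD1, chr12:50085092-50085199: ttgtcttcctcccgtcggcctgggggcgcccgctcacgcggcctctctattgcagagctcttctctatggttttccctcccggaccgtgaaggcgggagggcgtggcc
The SMARCA4 stretch holds 3 GC boxes and the SMARCD1 stretch 0. Over the 250 bases before the RefSeq start, SMARCA4 holds 4 and SMARCD1 1, and 42.6% of 35116 RefSeq promoters hold at least 1 in the same window, as do 6 of the 13 entries matched to the members.

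Total counts ran from 5248953 to 29862665 per library and were highest with the inhibitors. Mitochondrial rRNA made up 20.8 to 23.9% of the counts in WT cells but at most 0.0259% in KDAC8H143A and at most 0.00541% with either inhibitor, so these 3 groups differed from WT cells in library content as well as in condition, which cannot be told apart. In KDAC6H216A replicate 1 (0.195%) and KDAC6H611A replicate 4 (0.173%) this share was also low, against 13.1% or more in the other libraries of these lines, and these libraries are referred to below as standing apart. Of 8 mesenchymal markers, at least 6 averaged at least 1 CPM (the count scaled to the size of the library) in every group, and their summed level was 3470 to 9170 CPM. Of 6 epithelial markers, 1 averaged at least 1 CPM in every group, and KRT14 was at 0 in all 6 groups. Their summed level did not exceed 10.2 CPM and was 7.18 to 10.2 CPM in KDAC8H143A against 3.78 to 6.5 CPM in WT cells. Of the targeted genes, HDAC6 was lower in KDAC6H216A (log2 fold change -1.25 ± 0.18 SE, edgeR adjusted p = 5.40e-03) and not called in KDAC6H611A (-0.10 ± 0.18), and HDAC8 was not called in KDAC8H143A (0.03 ± 0.13), where a missense change need not alter the RNA.

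All 10 genes were well measured, with up to 4872 counts in a library and every member tested in every comparison. In WT cells the level per kb of transcript was highest for SMARCA4 (33.8 ± 2.1 CPM per kb, SD, n = 4) and SMARCD1 (33.2 ± 2.3), whose ranges overlapped. SMARCC1 followed at 26.5 ± 0.33 CPM per kb, then SMARCC2 (15.5 ± 0.66), ARID1A (13.3 ± 0.26) and PBRM1 (11.99 ± 0.64), none of which overlapped its neighbour. SMARCB1 (9.62 ± 0.53), SMARCA2 (8.09 ± 0.32), ARID1B (7.89 ± 0.10) and ARID2 (7.09 ± 0.38) were lowest, and of these SMARCA2 and ARID1B overlapped. Counted per kb, SMARCA4 therefore supplied 80.6 ± 0.92% of the ATPase RNA, ARID1A 62.8 ± 0.49% of the ARID1 RNA and SMARCC1 63.1 ± 0.99% of the scaffold RNA in WT cells. Levels below are CPM on a TMM scale set over all 22 libraries. The fold changes come from edgeR fits of 2 groups, each with its own scale, which lie 0.12 (Tubastatin A) and 0.10 (PCI-34051) lower in log2 against WT cells than the joint scale and 0.05 higher for KDAC8H143A. Overlap of levels between groups was read on the joint scale unless stated, and it can differ on the scale of a fit. A call is an adjusted p below 0.01 (Benjamini-Hochberg over all genes tested), and p-values measure the spread between these replicate cultures of 1 line.

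**Figure D1:**
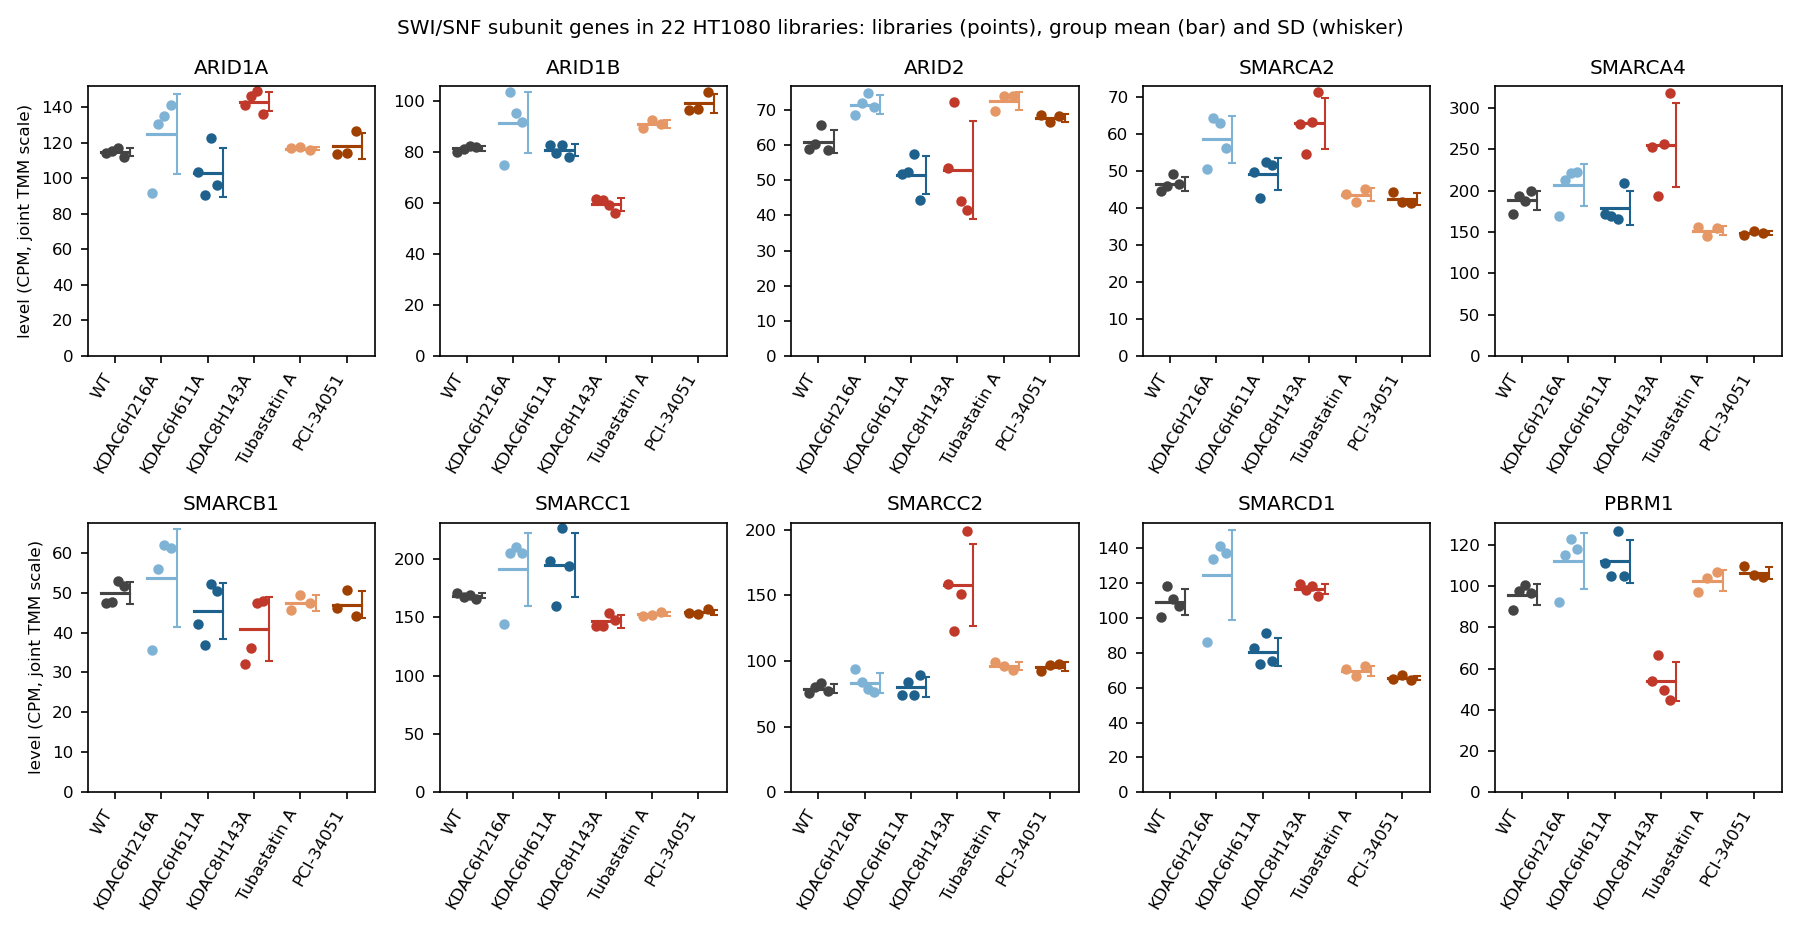
Level of each SWI/SNF gene (CPM, joint TMM scale, vertical axis from 0) in every library, by group. Points are libraries, bars group means and whiskers 1 SD. SMARCC2 was highest and PBRM1 and ARID1B lowest in KDAC8H143A, and SMARCD1 was lowest with the 2 inhibitors.

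The KDAC8 mutant showed the largest shifts among the members. In KDAC8H143A, SMARCC2, SMARCA2, SMARCA4 and ARID1A were higher than in WT cells and PBRM1 and ARID1B were lower, 6 of 10 members changed against 58.5% of the 16101 genes tested, with 4 higher (31.6% of all genes) and 2 lower (26.9%). The members' median log2 fold change was -0.00 beside 0.08 over all genes. The share called was thus near the background, and what the fit gives is the direction and size for each gene.

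SMARCC2, which encodes a scaffold subunit, had the largest fold change of the 10 members. It stood at 76.0, 80.0, 83.4 and 76.9 CPM in the 4 WT libraries and at 159, 123, 151 and 199 CPM in the 4 KDAC8H143A libraries. Every mutant library was above every WT library. This is 2.07-fold (log2 fold change 1.05 ± 0.14, edgeR adjusted p = 4.16e-05), and the call held in all 8 fits with 1 library left out (0.87 to 1.10). SMARCC1, its paralog, was at 166 to 171 CPM in WT cells and 142 to 154 CPM in the mutant and missed the threshold (-0.15 ± 0.08, edgeR adjusted p = 0.128). SMARCD1, which bridges the core to transcription factors, was at 100.2 to 118 CPM and 113 to 119 CPM and was not called (0.15 ± 0.09).

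Of the PBAF genes, PBRM1, the bromodomain protein that reads acetylated histones, was at 88.6, 97.8, 100.5 and 96.4 CPM in WT cells and at 53.9, 66.8, 49.8 and 44.6 CPM in KDAC8H143A. The groups did not overlap, and PBRM1 fell by 41.9% (-0.78 ± 0.12, edgeR adjusted p = 1.26e-04), again in all 8 fits with 1 library left out. ARID2, the DNA-binding subunit of PBAF, spread from 41.5 to 72.4 CPM in the mutant around the WT range of 58.5 to 65.7 CPM. It was not called (-0.15 ± 0.16) except without KDAC8H143A replicate 2, its highest library (-0.40, edgeR adjusted p = 0.0026).

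As fitted, the genes of the alternative cBAF subunits differed from WT cells in opposite directions, whereas with a correction for GC content and length, described below, both were called lower (ARID1A -0.49 ± 0.10, ARID1B -1.03 ± 0.08). ARID1A was at 114, 115, 117 and 112 CPM in WT cells and at 141, 146, 149 and 136 CPM in KDAC8H143A, with no overlap (0.37 ± 0.08, edgeR adjusted p = 1.81e-03). ARID1B was at 79.9, 81.1, 82.4 and 81.8 CPM in WT cells and at 61.3, 61.1, 59.1 and 55.8 CPM in the mutant, also with no overlap (-0.40 ± 0.08, edgeR adjusted p = 1.05e-03). In the uncorrected fit ARID1A rose by 29.4% and ARID1B fell by 24.4%. The ARID1A call was lost without WT replicate 2, 3 or 4 or KDAC8H143A replicate 3 (0.31 to 0.36, edgeR adjusted p = 0.0101 to 0.0128), and the ARID1B call was kept in all 8. ARID1B lies in distal 6q, and of 31 protein-coding genes tested within 5 Mb on either side, 23 were lower and 1 higher, with a median log2 fold change of -1.12. As fitted, the fall of ARID1B was smaller than that of the median neighbour. With the correction ARID1B was at -1.03, and no corrected median of its neighbours was computed, so the sizes cannot be compared on that footing. The part of the region in the fall was not tested. For the other 9 members the median of the neighbours was between -0.25 (SMARCA2) and 0.59 (SMARCB1).

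Both ATPase genes were called higher as fitted, but with the same correction SMARCA4 was called lower (-0.48 ± 0.08) and SMARCA2 was no longer called (0.32 ± 0.10). SMARCA2 was at 44.6, 46.0, 49.1 and 46.4 CPM in WT cells and at 62.7, 54.5, 63.1 and 71.4 CPM in KDAC8H143A, above every WT library (0.49 ± 0.10, edgeR adjusted p = 1.38e-03). SMARCA4 was at 172, 193, 188 and 199.9 CPM and at 253, 194, 257 and 318 CPM, so that mutant replicate 2 lay within the WT range (0.49 ± 0.14, edgeR adjusted p = 7.44e-03). The SMARCA4 call was kept in 1 of 8 fits with 1 library left out, without KDAC8H143A replicate 2, and was lost without any other library (0.32 to 0.50, edgeR adjusted p = 0.0167 to 0.0322). SMARCB1, the core subunit lost in rhabdoid tumours, was at 47.5 to 52.8 CPM in WT cells and 32.1 to 47.8 CPM in the mutant and was not called (-0.24 ± 0.13).

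**Figure D2:**
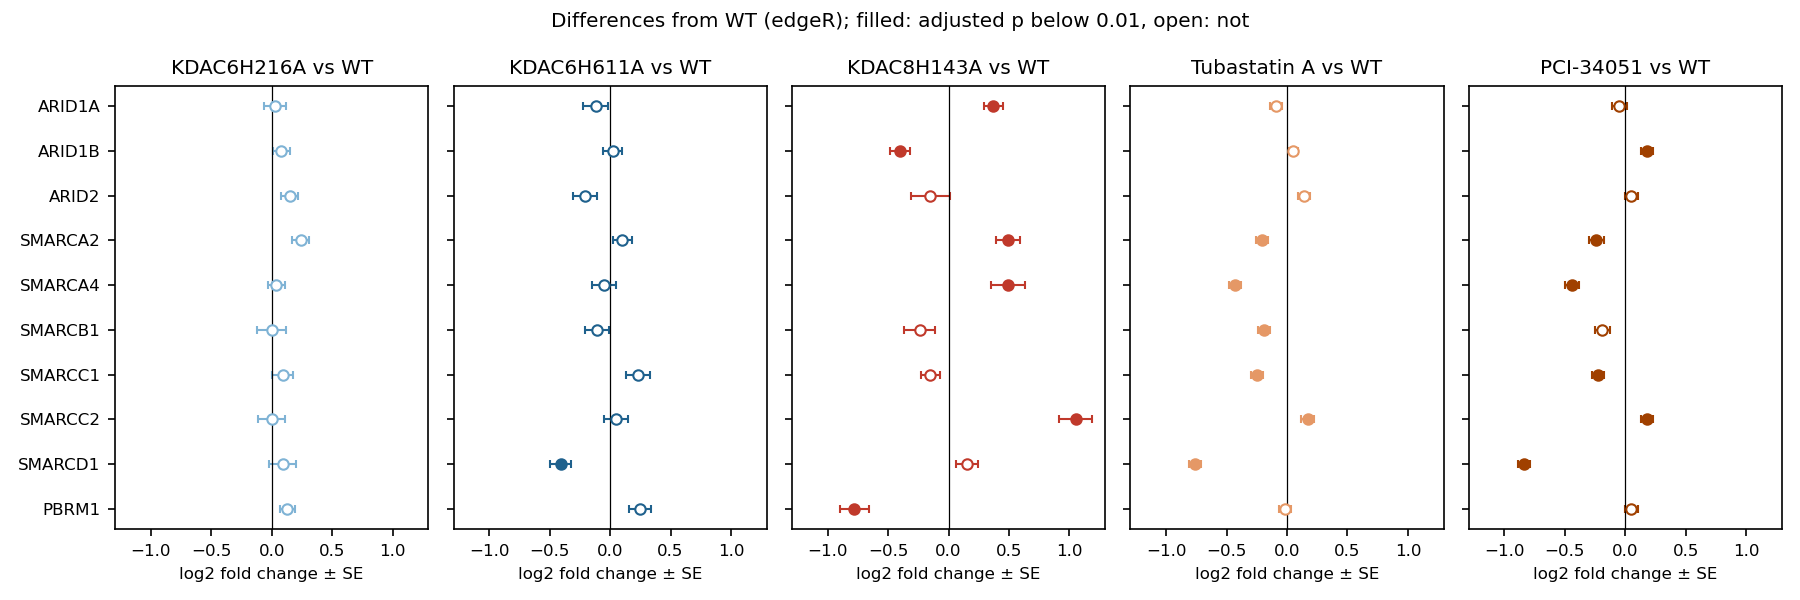
Log2 fold change against WT cells (horizontal axis, bars are 1 SE) of the 10 members in each mutant line and inhibitor group, from edgeR fits of 2 groups. Filled points pass an adjusted p of 0.01. KDAC6H216A has 0 filled points and KDAC6H611A 1, while KDAC8H143A and both inhibitors have 6 each.

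In KDAC8H143A the fold changes of all genes followed the GC content of the transcript, with a median of -0.77 in the lowest of 5 equal bins of GC content and 1.03 in the highest. The members span this range from ARID2 (40.5% GC) to SMARCA4 (60.6%). Set against the genes of its own bin, SMARCC2 was 0.52 higher in log2, SMARCA2 0.44 higher and ARID2 0.62 higher, whereas PBRM1 lay 0.45 below, SMARCA4 0.54 below, ARID1B 0.94 below and SMARCB1 1.27 below. A fit corrected for GC content and length turned ARID1A (-0.49 ± 0.10), SMARCA4 (-0.48 ± 0.08) and SMARCD1 (-0.31 ± 0.08) to falls that passed the threshold, and made SMARCB1 a call (-1.14 ± 0.11, edgeR adjusted p = 4.13e-06). It kept SMARCC2 higher (0.55 ± 0.11, edgeR adjusted p = 9.26e-04) and PBRM1 (-0.39 ± 0.08) and ARID1B (-1.03 ± 0.08) lower, and it ended the call of SMARCA2 (0.32 ± 0.10, edgeR adjusted p = 0.0119). With this correction 7 members were called, 1 higher and 6 lower, against 48.4% of all genes. The rise of SMARCC2 and the falls of PBRM1 and ARID1B were thus called with and without the correction. With the counts scaled by total count alone, which moved the median of all genes to 0.36, the ARID1B call ended (-0.12) and those of SMARCC2 and PBRM1 held. Whether the trend with GC content belongs to the libraries or to the cells was not tested.

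**Figure D3:**
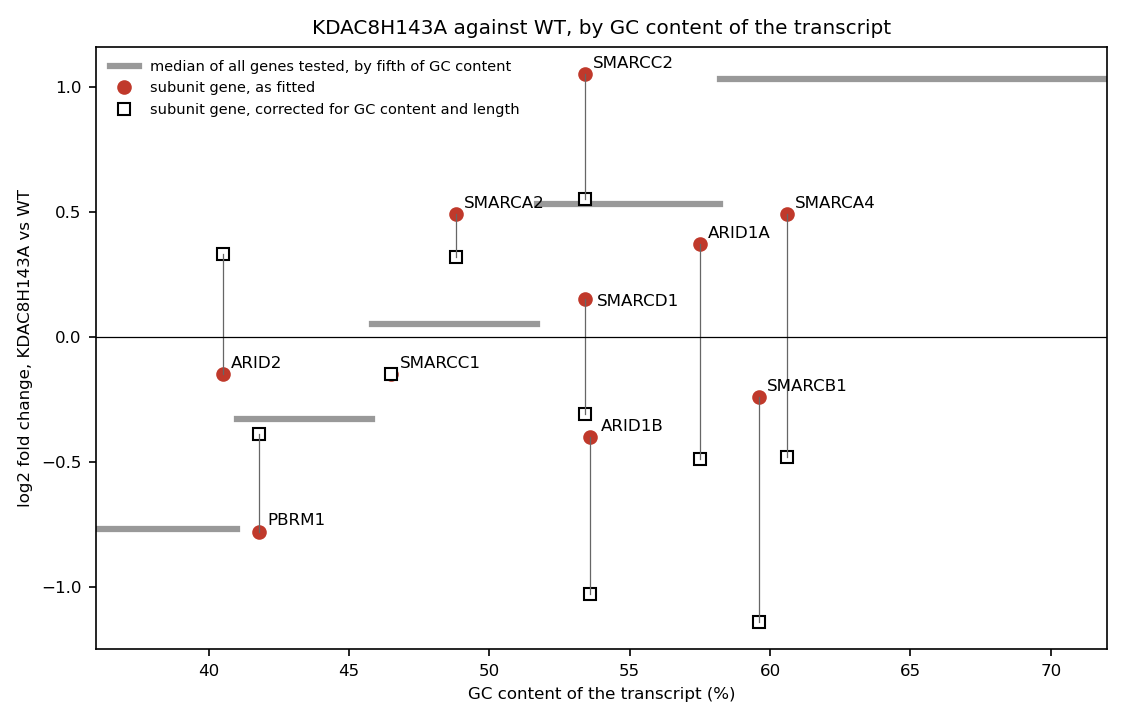
Log2 fold change of the 10 members in KDAC8H143A against WT cells (vertical axis) by GC content of the transcript (%, horizontal axis). Red circles are the values as fitted, open squares the values corrected for GC content and length, and grey bars the median of all genes tested in each of 5 bins of GC content, which runs from -0.77 to 1.03. ARID1A, SMARCA4 and SMARCD1 cross 0 with the correction, as does ARID2, while SMARCC2 and PBRM1 do not.

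With Tubastatin A, SMARCD1 and SMARCA4 fell most, SMARCC1, SMARCA2 and SMARCB1 fell by less and SMARCC2 rose slightly. This is 6 of 10 members against 57.9% of the 15246 genes tested, 5 lower (28.6% of all genes) and 1 higher (29.3%), with a median of -0.14 beside -0.00 over all genes. With PCI-34051, SMARCD1, SMARCA4, SMARCA2 and SMARCC1 were lower and SMARCC2 and ARID1B higher, 6 of 10 against 51.1% of 15346 genes, 4 lower (25.6%) and 2 higher (25.5%), with a median of -0.12 beside -0.01. The inhibitors were given at different doses and share the WT libraries as their control, so their values are set side by side and not compared. The medians of the GC bins lay between 0.17 (the lowest bin with Tubastatin A) and -0.13. With the correction for GC content and length 7 members were called with Tubastatin A, 1 higher and 6 lower, PBRM1 being added as lower (-0.19 ± 0.05, edgeR adjusted p = 2.12e-03). With PCI-34051 the correction left 0 higher and 5 lower, ending the calls of ARID1B (0.12 ± 0.05, edgeR adjusted p = 0.0442) and SMARCC2 (0.15 ± 0.05, edgeR adjusted p = 0.0173) and adding SMARCB1 (-0.24 ± 0.06, edgeR adjusted p = 3.80e-03). Over all genes the corrected fits called 56.6% with Tubastatin A and 50.7% with PCI-34051. The difference in mitochondrial rRNA from WT cells applies to every value below.

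SMARCD1 was at 100.2, 118, 111 and 107 CPM in WT cells, 70.4, 66.6 and 72.2 CPM with Tubastatin A and 64.8, 67.0 and 64.6 CPM with PCI-34051. All 6 treated libraries were below all WT libraries. It fell by 41.0% with Tubastatin A (-0.76 ± 0.05, edgeR adjusted p = 1.16e-10) and by 44.1% with PCI-34051 (-0.84 ± 0.05, edgeR adjusted p = 3.16e-10). These 2 calls held under every alternative run. Genes within 5 Mb of SMARCD1 had a median of 0.10 and 0.04.

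SMARCA4 was at 155, 145 and 155 CPM with Tubastatin A and at 146, 151 and 148 CPM with PCI-34051, all below its lowest WT library (172 CPM). It fell by 25.8% (-0.43 ± 0.05, edgeR adjusted p = 3.47e-07) and by 26.4% (-0.44 ± 0.06, edgeR adjusted p = 2.21e-06). Both calls held with any 1 library left out, and neither held when all 6 groups were fitted together (-0.31 and -0.34, edgeR adjusted p = 0.0713 and 0.0539) or with scaling by total count alone (-0.08 and -0.05). SMARCA2, the other ATPase gene, was at 43.9, 41.7 and 45.2 CPM with Tubastatin A and 44.2, 41.7 and 41.2 CPM with PCI-34051 against 44.6 to 49.1 CPM in WT cells, ranges that overlap with Tubastatin A and not with PCI-34051. It fell by 13.5% (-0.21 ± 0.05) and 15.1% (-0.24 ± 0.06). The values stayed close to these but no longer passed the threshold without WT replicate 3 (-0.18 and -0.21, edgeR adjusted p = 0.0168 and 0.0110) and, for Tubastatin A, without its replicate 2 (-0.17, edgeR adjusted p = 0.0153). Both SMARCA2 calls also ended with DESeq2 (-0.16 and -0.20, DESeq2 adjusted p = 0.0504 and 0.0259). They ended too with no filter on low counts (-0.12 and -0.15, edgeR adjusted p = 0.155 and 0.0922). With all 6 groups in 1 fit the values were smaller and not called (-0.09 and -0.14, edgeR adjusted p = 0.506 and 0.339).

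Of the scaffold genes, SMARCC1 was at 151, 152 and 155 CPM with Tubastatin A and 153, 153 and 157 CPM with PCI-34051, below the WT range of 166 to 171 CPM (-0.25 ± 0.05 and -0.23 ± 0.05). SMARCC2 was at 99.2, 96.6 and 93.2 CPM and at 92.3, 97.1 and 98.1 CPM, above the WT range of 76.0 to 83.4 CPM (0.17 ± 0.05, edgeR adjusted p = 3.96e-03, and 0.18 ± 0.05, edgeR adjusted p = 6.30e-03). The SMARCC1 calls held with any 1 library left out, but not with all 6 groups in 1 fit (-0.14 and -0.12, edgeR adjusted p = 0.378 and 0.448), and the PCI-34051 call also ended with no filter on low counts (-0.14, edgeR adjusted p = 0.0833). The SMARCC2 calls did not, being kept in 3 and 2 of 7 such fits (0.15 to 0.20 and 0.15 to 0.21). They were lost without WT replicate 2 or 4 or Tubastatin A replicate 1 or 2, and without WT replicate 1, 2 or 4 or PCI-34051 replicate 2 or 3.

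SMARCB1 was at 45.5, 49.4 and 47.4 CPM with Tubastatin A and overlapped WT cells, and its call (-0.19 ± 0.05, edgeR adjusted p = 4.35e-03) was lost without WT replicate 3 or 4 or Tubastatin A replicate 1 or 3. It was also lost with DESeq2 (-0.14, DESeq2 adjusted p = 0.0836) and with no filter on low counts (-0.10, edgeR adjusted p = 0.247). With all 6 groups in 1 fit SMARCB1 was at -0.07 (edgeR adjusted p = 0.745). With PCI-34051 its value was the same in size (-0.19 ± 0.06) and missed the threshold (edgeR adjusted p = 0.0128). ARID1B was at 96.6, 96.8 and 103 CPM with PCI-34051, above the WT libraries (0.18 ± 0.05, edgeR adjusted p = 5.25e-03), a call kept in 2 of 7 fits, without WT replicate 1 or PCI-34051 replicate 2. With Tubastatin A ARID1B was not called (0.05 ± 0.04). ARID1A itself stood at 117, 117 and 116 CPM with Tubastatin A and at 114, 114 and 127 CPM with PCI-34051, was within 6% of WT cells in both fits (-0.09 ± 0.05 and -0.05 ± 0.06) and was called in neither. PBRM1 and ARID2 were called in neither group, with values of -0.02 ± 0.05 and 0.14 ± 0.05 for Tubastatin A and 0.05 ± 0.05 each for PCI-34051.

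With the counts scaled by total count alone, the median over all genes stood at a log2 value of 0.35 for Tubastatin A and 0.38 for PCI-34051, and on that scale the falls of SMARCA2 and SMARCC1 (and of SMARCB1 with Tubastatin A) turned to small rises while SMARCD1 stayed lower. Relative to that shift each of them was lower, as in the fits above.

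Few differences in these genes passed the threshold in the KDAC6 lines. In KDAC6H216A 0 of 10 members passed the threshold with edgeR or DESeq2, against 0.834% of the 14500 genes tested, and 1 (SMARCA2) had an unadjusted p below 0.05. Without replicate 1, the library that stands apart, SMARCA2 (0.25, edgeR adjusted p = 4.31e-03) and SMARCD1 (0.19, edgeR adjusted p = 8.51e-03) passed as higher, but in that fit 26.0% of all 14638 genes passed, so the low share over all genes rested on this library and 2 of 10 members was not above it. In KDAC6H611A 1 of 10 passed, against 12.3% of 14725 genes. SMARCD1 was at 82.6, 73.3, 91.0 and 75.0 CPM against 100.2 to 118 CPM in WT cells, with no overlap, and fell by 24.8% (-0.41 ± 0.09, edgeR adjusted p = 6.22e-03). That call was kept in 2 of 8 fits with 1 library left out, without KDAC6H611A replicate 2 or 3, and lost without any other, replicate 4 included (-0.38 to -0.44, edgeR adjusted p = 0.0123 to 0.0326).

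PBRM1 (105 to 127 CPM) and SMARCC1 (160.0 to 227 CPM) were not called in KDAC6H611A (0.25 ± 0.09 and 0.23 ± 0.10). Their surroundings in 3p moved, however. Of 122 protein-coding genes tested within 5 Mb of PBRM1, 37 were higher and 0 lower, with a median of 0.41, and of 142 near SMARCC1, 38 were higher and 0 lower, with a median of 0.39. The windows overlap and hold some of the same genes. Compared directly, KDAC6H611A and KDAC6H216A differed in 0 of 10 members with edgeR, against 9.93% of 14961 genes, with 2 at an unadjusted p below 0.05. DESeq2 called both of these lower in KDAC6H611A, ARID2 (-0.44, DESeq2 adjusted p = 2.41e-03) and SMARCD1 (-0.59, DESeq2 adjusted p = 3.93e-03). That is 2 of 10 members, in a fit that called 12.3% of all genes. SMARCD1 also passed with edgeR without KDAC6H216A replicate 1 (-0.65, edgeR adjusted p = 8.99e-04) and without both libraries that stand apart (-0.59, edgeR adjusted p = 2.65e-03), fits in which 19.5% and 13.9% of all genes passed.

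PCI-34051 and KDAC8H143A both target KDAC8, and the direct fit asks whether they leave these genes at the same level. They differed in 6 of 10 members, against 58.2% of 18540 genes. PBRM1 (1.02 ± 0.14) and ARID1B (0.77 ± 0.10) were higher with PCI-34051, 2 members against 30.3% of all genes. SMARCD1 (-0.79 ± 0.10), SMARCA4 (-0.74 ± 0.16), SMARCC2 (-0.68 ± 0.15) and SMARCA2 (-0.53 ± 0.12) were lower, 4 members against 27.8%. In all, 8 of 10 members did not overlap between the groups on the scale of this fit, these 6 among them. On the joint scale of the levels given above, ARID2, SMARCB1 and SMARCC1 overlapped. The share of all genes without overlap was not computed, so the count without overlap adds nothing to the calls. With the correction for GC content and length SMARCD1, SMARCA2, ARID1B and PBRM1 kept their calls, SMARCA4 was at -0.01 ± 0.09 and SMARCC2 at -0.40 ± 0.12 (edgeR adjusted p = 0.0132), and SMARCB1 (0.90 ± 0.13) and ARID2 (-0.42 ± 0.11) passed. The calls of SMARCC2 and SMARCA2 also depended on single libraries, SMARCC2 being lost without any 1 of the 3 PCI-34051 libraries (-0.68 to -0.69) and SMARCA2 without PCI-34051 replicate 2 or 3 (-0.51 and -0.50). ARID1A, the proposed substrate, was lower with PCI-34051 by 0.24 ± 0.10 in log2 and was not called (edgeR adjusted p = 0.0596).

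The ratio of the counts of paralog genes within a library needs no scaling between libraries, but it does not cancel a trend with GC content where the genes of a pair differ in it. In WT cells the log2 ratio of SMARCC1 to SMARCC2 was 1.17, 1.07, 1.02 and 1.11, in KDAC8H143A -0.16, 0.21, 0.02 and -0.43, with Tubastatin A 0.61, 0.66 and 0.73 and with PCI-34051 0.73, 0.66 and 0.68. All 10 libraries of these 3 groups were below WT cells. SMARCC1 supplied 43.0 ± 4.6% of the scaffold RNA per kb in KDAC8H143A (SD, n = 4), 56.0 ± 1.1% with Tubastatin A (n = 3) and 56.4 ± 0.69% with PCI-34051 (n = 3), against 63.1 ± 0.99% in WT cells. The differences in log2 were -1.18, -0.43 and -0.40.

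The log2 ratio of ARID1A to ARID1B was 0.51, 0.51, 0.51 and 0.45 in WT cells and 1.20, 1.26, 1.33 and 1.29 in KDAC8H143A, a difference of 0.78. With the inhibitors it went the other way, to 0.38, 0.34 and 0.35 with Tubastatin A and 0.24, 0.24 and 0.29 with PCI-34051. The ratio of SMARCA4 to SMARCA2 in KDAC8H143A overlapped that in WT cells (1.83 to 2.15 against 1.94 to 2.11 in WT cells, difference -0.01), and was 1.77 to 1.83 with Tubastatin A and 1.73 to 1.86 with PCI-34051, below all WT libraries. Taken from the fold changes corrected for GC content and length, the KDAC8H143A differences were -0.80 for SMARCA4 to SMARCA2, -0.70 for SMARCC1 to SMARCC2 and 0.54 for ARID1A to ARID1B, with no test. In the KDAC6 lines all 3 ratios overlapped WT cells. By the exact two-sided permutation test the KDAC8H143A differences in the scaffold and ARID1 ratios had p = 0.0286 and the inhibitor differences p = 0.0571, the smallest that 4 against 4 and 3 against 4 libraries can give. After Benjamini-Hochberg adjustment over the 15 comparisons each of these was 0.107 by the exact permutation test, so none passed 0.05.

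**Figure D4:**
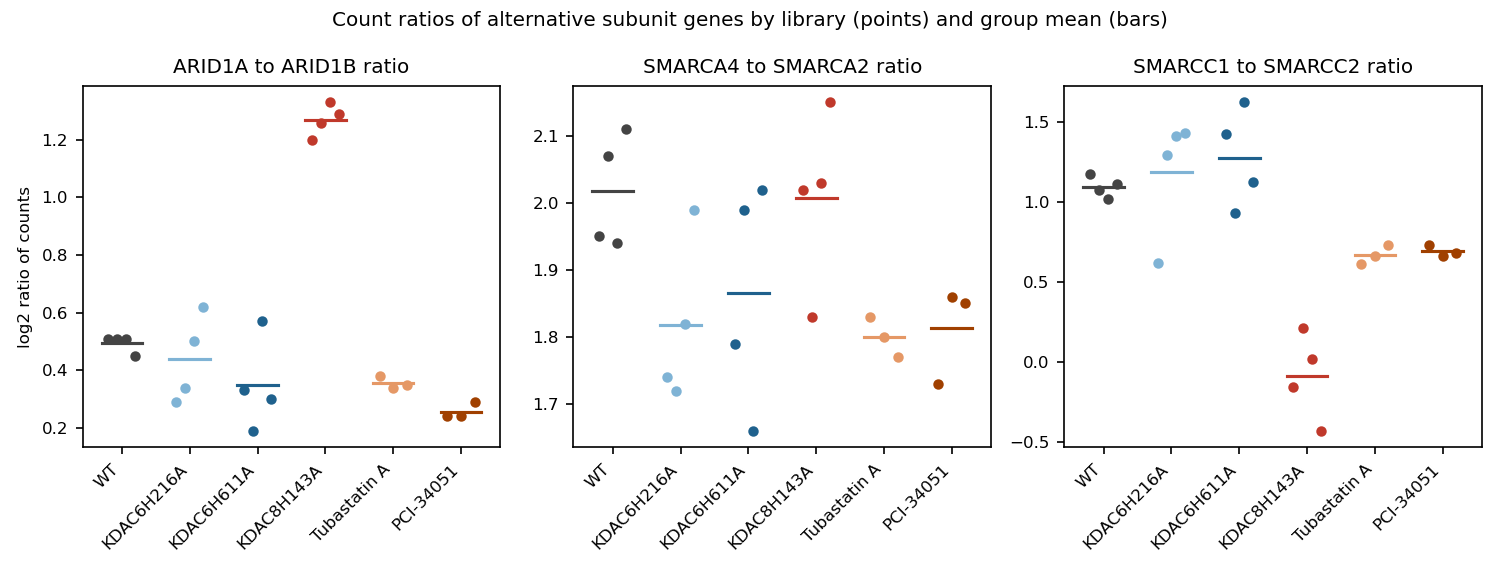
Log2 ratio of the counts of 3 paralog pairs (vertical axis) in every library by group, with bars at the group means. The SMARCC1 to SMARCC2 ratio is below WT cells in every library of KDAC8H143A and of both inhibitors, and the ARID1A to ARID1B ratio is above WT cells in KDAC8H143A and below with the inhibitors.

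Some other subunit genes moved further than any of the 10 members. A list of 19 was taken from general knowledge of the complexes, of which 18 were tested (ACTL6B, a neuronal subunit, was not). In KDAC8H143A 9 of 18 changed, 5 higher and 4 lower, a share below the 58.5% of all genes. With the correction for GC content and length 3 were higher and 6 lower, beside 48.4% of all genes called. The largest rises were in ncBAF genes, BICRA (4.29 ± 0.69 CPM in WT cells, 36.8 ± 12.3 in the mutant, 3.14 ± 0.25) and BRD9 (87.4 ± 3.0 and 385 ± 102 CPM, 2.19 ± 0.18), which stayed higher with the correction for GC content and length (1.11 ± 0.12 and 1.56 ± 0.14). BICRAL, the alternative to BICRA, did not share the rise (-0.12 as fitted, 0.12 ± 0.14 with the correction). Of the tested neighbours of BRD9 within 5 Mb, 13 of 22 were higher and 3 lower (median 0.56). For BICRA 98 of 198 were higher and 12 lower (median 0.65). Both windows were looked at after the values were seen. SS18, shared by cBAF and ncBAF (-1.53 ± 0.19), the PBAF subunit PHF10 (-1.38 ± 0.11) and ACTL6A, an actin-related subunit (-1.06 ± 0.11), fell and SS18L1, the paralog of SS18, rose (0.68 ± 0.11). PHF10 also lies in distal 6q, where 12 of its 18 tested neighbours were lower (median -1.0), and the window was looked at after its value was seen.

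With Tubastatin A 12 of 18 changed, 4 higher and 8 lower, and with PCI-34051 12 of 18, 3 higher and 9 lower, beside 57.9% and 51.1% of all genes changed and 28.6% and 25.6% lower. With the correction for GC content and length 14 of 18 were called with each inhibitor, beside 56.6% and 50.7% of all genes. Of these, 4 were higher and 10 lower with Tubastatin A, and 5 higher and 9 lower with PCI-34051. DPF3 (-1.42 ± 0.14 and -1.52 ± 0.15) and DPF1 (-1.45 ± 0.31 and -1.47 ± 0.32), alternative cBAF subunits, and BRD7 of PBAF (-0.69 ± 0.04 and -0.81 ± 0.06) were lower with both, and BICRA (1.33 ± 0.13 and 1.31 ± 0.16) and BICRAL (0.88 ± 0.08 and 0.90 ± 0.09) were higher. DPF1 was low throughout, at 2.27, 2.24, 2.14 and 4.77 CPM in the WT libraries. It was at 0.85 to 1.34 CPM with Tubastatin A and 0.95 to 1.20 CPM with PCI-34051, so its fall is partly set by WT replicate 4. BRD9 went against its direction in KDAC8H143A (-0.56 ± 0.05 and -0.44 ± 0.06). SMARCD3, a paralog of SMARCD1, rose where SMARCD1 was called lower as fitted, by 0.74 ± 0.13 with Tubastatin A, 0.51 ± 0.14 with PCI-34051 and 0.91 ± 0.18 in KDAC6H611A (10.4 to 14.9 CPM in these libraries). SMARCD2, the other paralog, was lower with both inhibitors, like SMARCD1 (-0.41 and -0.45). In KDAC8H143A SMARCD3 was at 0.60 as fitted, where SMARCD1 was at 0.15, and at -0.16 with the correction for GC content and length. Of 36 tested neighbours of SMARCD3 within 5 Mb in KDAC6H611A, 5 were higher and 0 lower (median 0.36). That window was also looked at after the value was seen.

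In KDAC6H216A 0 of 18 passed with edgeR, beside 0.834% of all genes, a share that was 26.0% without replicate 1. At an unadjusted p below 0.05 there were 5, and the share of all genes at that p was not computed. In KDAC6H611A 3 of 18 passed, beside 12.3% of all genes, SS18 lower (-1.07 ± 0.09, edgeR adjusted p = 7.52e-06), ACTL6A lower (-0.57 ± 0.13) and SMARCD3 higher. SS18 lies on chromosome 18, and 13 of 23 tested neighbours within 5 Mb were lower there and 0 higher, with a median of -0.70, a window also looked at after the value was seen.

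**Figure D5:**
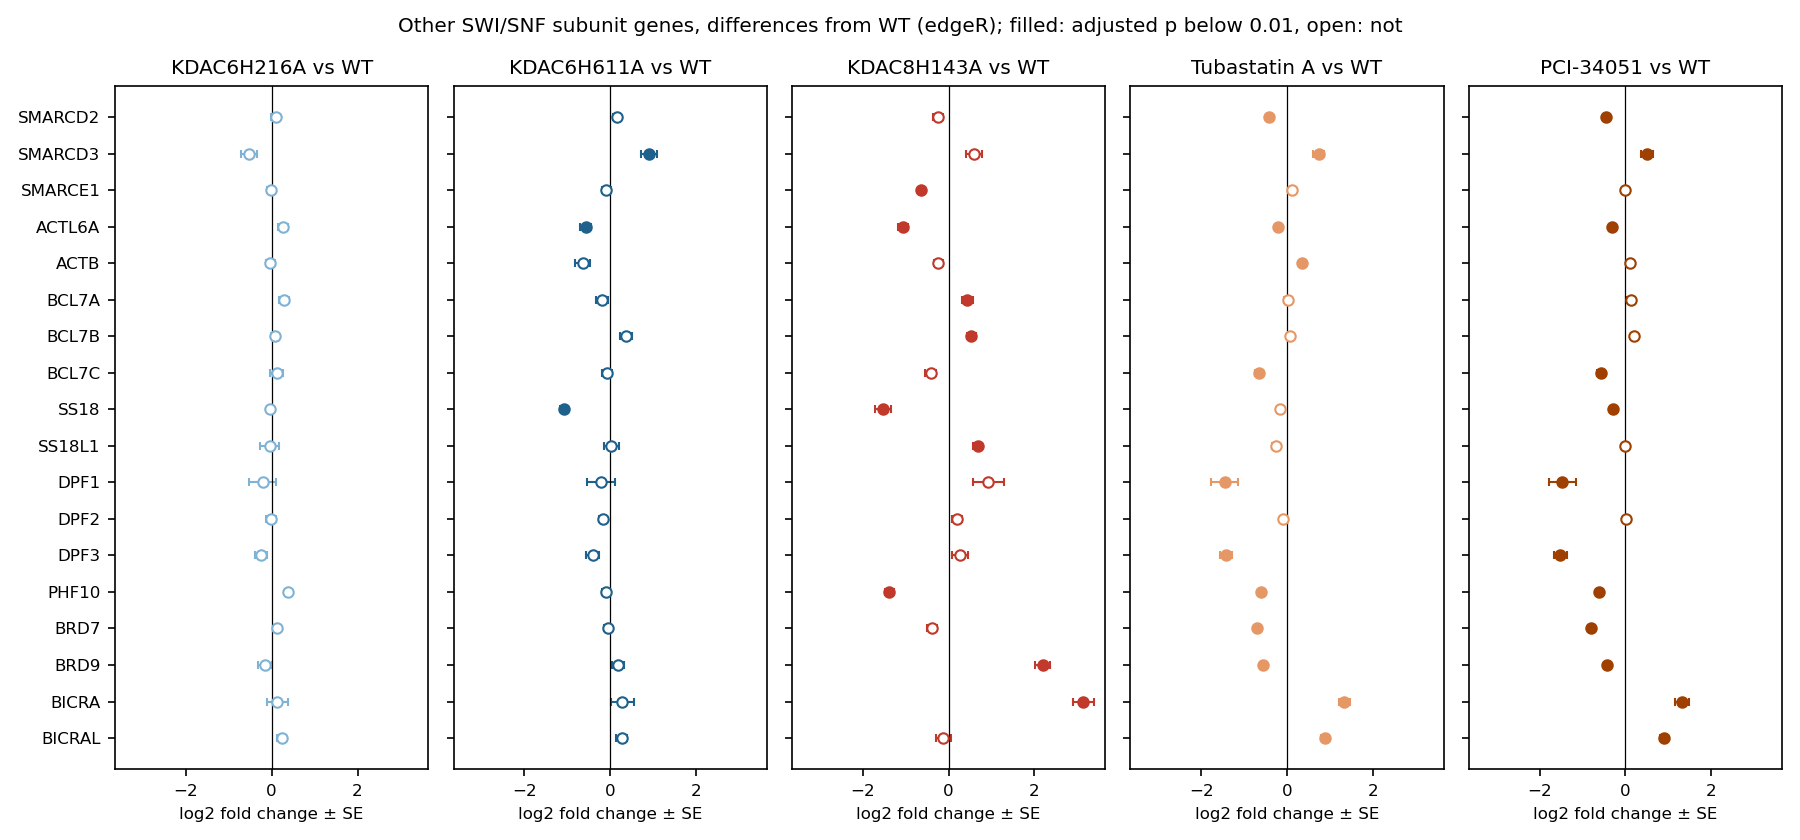
Log2 fold change against WT cells (horizontal axis, bars are 1 SE) of 18 other SWI/SNF subunit genes in each group. Filled points pass an adjusted p of 0.01. BICRA and BRD9 are far to the right in KDAC8H143A, and DPF1 and DPF3 to the left with both inhibitors.

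Across the 22 libraries the genes whose log2 CPM was most like that of ARID1A, among 15629 genes averaging at least 1 CPM, were CTDSP1 (Pearson's r = 0.921), EEF2KMT (0.900), UBQLN4 (0.900), XPO6 (0.897) and KMT2A (0.894). No other member was among them. The nearest was SMARCA2 (r = 0.586, rank 1083), and PBRM1 was the farthest (r = -0.453, rank 14036). Among the members the strongest positive correlations were between SMARCA2 and SMARCA4 (0.89) and between ARID1B and PBRM1 (0.88), and the strongest negative one between SMARCC2 and PBRM1 (-0.92). These are descriptions over libraries that share groups and library content, and the groups carry most of the spread.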

How the data were processed

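RNA from 22 HT1080 libraries was depleted of rRNA and sequenced as paired ends. Per the labels and methods, the authors trimmed reads with Trimmomatic 0.39, aligned them to GRCh38 with Bowtie2 2.4.5 and deposited RSEM 1.3.3 expected counts per gene, not scaled for depth or length. The annotation release is not given in the sources used here. The authors' own tests used DESeq2 1.38.2. Here counts were rounded and each pair of groups was fitted with edgeR 4.0.16 (TMM, filterByExpr, glmQLFit, glmQLFTest). R was 4.3.3. P-values were adjusted by Benjamini-Hochberg over every gene tested, and the threshold was 0.01. Standard errors are the log2 fold change over the square root of F. Gene positions, lengths and GC content came from GENCODE release 44, and GC correction used mgcv 1.9.3. Alternatives included DESeq2 1.42.0. Ratios were compared with exact permutation tests in scipy 1.17.1. The genes most like ARID1A were ranked on log2(CPM + 0.5). The members, gene lists, tests and windows were chosen with earlier results of these data known. All 10 members were to be named, of the other subunits up to 6 called per comparison by size, besides HDAC6, HDAC8 and 5 genes most like ARID1A. Beyond that count, BRD9 and SMARCD2 with the inhibitors, SMARCD3 with PCI-34051 and in KDAC8H143A, and BICRAL in KDAC8H143A were named with their values known. The fits were tested on simulated data. Counts in SMARCC2, SMARCA4 and PBRM1 include fractional assignments of shared reads by RSEM. No 2 replicates agreed within sampling noise.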

Additional observations from a re-analysis of the deposited data

Results flagged for a closer look

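Among 52 sets of 4 libraries tested with Dixon's criterion, 4 held a library far from the others, where chance gives about 5% of sets. SMARCC1 (144.4 CPM) and SMARCD1 (86.37 CPM) were lowest in KDAC6H216A replicate 1, with a gap of 0.921 and 0.861 of the group's range, and SMARCA4 was highest in KDAC6H611A replicate 4 (209.5 CPM, gap 0.855). These are the libraries with little mitochondrial rRNA, and the part of that in these values was not tested. The ARID1A to ARID1B log2 ratio was lowest in WT replicate 4 (0.45, gap 0.89), a difference that is small beside that to KDAC8H143A.

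PCI-34051 and KDAC8H143A differed from each other in the direct edgeR fit in 6 members, with log2 differences of 1.02 for PBRM1, 0.77 for ARID1B, -0.53 for SMARCA2, -0.68 for SMARCC2, -0.74 for SMARCA4 and -0.79 for SMARCD1. With the correction for GC content and length these were 0.31, 1.15, -0.61, -0.40, -0.01 and -0.51.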

How the results depend on the processing

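Of 780 member fold changes recomputed under other settings, 688 kept direction and side of the threshold, 46 lost a call, 29 gained one and 17 reversed. Reversal is counted where the value passes the threshold in either fit, and 57 further values changed sign with no call in either. With 1 library left out, 479 of 530 were kept, 43 lost a call, 8 gained one and 0 reversed, with 19 sign changes without a call. Leaving out a library also changes which genes pass the filter and so the scale, which put ARID1B in KDAC8H143A at -0.48 to -0.42.

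The count of members changed in KDAC6H216A was 1 with total count only, where 3.06% of all genes were called. In KDAC6H611A it was 0 with total count only, no filter, all 6 groups in 1 fit or the replicate block. These settings called 6.2%, 7.72%, 11.3% and 10.6% of all genes, in that order. The count of members was 1 for Tubastatin A and 1 for PCI-34051 with all 6 groups in 1 fit, beside 24.9% and 23.5% of all genes. Between the KDAC6 lines it was 2 with DESeq2, 2 with all 6 groups, 2 at an adjusted p of 0.05 and 1 without both libraries that stand apart, a setting chosen after seeing the data. The shares of all genes were 12.3% with DESeq2, 18.3% with all 6 groups and 13.9% without both libraries. The share of all genes at an adjusted p of 0.05 was not computed, so that count has no background beside it. With 1 library left out the counts ranged from 0 to 2 (KDAC6H216A), 0 to 1 (KDAC6H611A), 4 to 7 (KDAC8H143A), 4 to 6 (each inhibitor), 0 to 1 (between the KDAC6 lines) and 4 to 7 (PCI-34051 against KDAC8H143A). In these fits the share of all genes called was 0.189 to 26.0% (KDAC6H216A), 7.48 to 19.4% (KDAC6H611A) and 48.3 to 65.2% (KDAC8H143A). It was 48.3 to 53.8% (Tubastatin A), 41.6 to 47.9% (PCI-34051), 5.1 to 19.5% (between the KDAC6 lines) and 46.9 to 65.6% (PCI-34051 against KDAC8H143A).

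Correction for GC content and length reversed, in KDAC8H143A, ARID1A to -0.49, SMARCA4 to -0.48 and SMARCD1 to -0.31, and with the replicate block added these were -0.50, -0.48 and -0.31. In PCI-34051 against KDAC8H143A it put ARID2 at -0.42, and with the block ARID2 at -0.45 and SMARCA4 at 0.01. Total count only reversed, for Tubastatin A, ARID1A (0.27), SMARCA2 (0.14), SMARCB1 (0.16), SMARCC1 (0.10) and PBRM1 (0.33), and for PCI-34051, ARID1A (0.34), SMARCA2 (0.15) and SMARCC1 (0.16), where the median of all genes was 0.35 and 0.38. Apart from these shifts of scale, the cause was not tested.

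Same-numbered replicates did not clearly deviate together in every pair of any comparison (r from -0.364 to 0.572), so the numbers were not taken to pair the libraries. In KDAC6H216A against WT cells r was positive in every pair, at 0.326, 0.077, 0.239 and 0.002. With the replicate block 6 members were called in KDAC8H143A, 4 with each inhibitor and 0 in KDAC6H611A. The shares of all genes called with the block were 57.1% in KDAC8H143A, 50.6% with Tubastatin A, 46.5% with PCI-34051 and 10.6% in KDAC6H611A. The 15 ratio comparisons could not be called by design, so their unchanged calls say nothing about stability.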
